A study of Mus musculus with 4 samples.

Results

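The Bcl2 family decides whether a cell commits to death through its mitochondria, and 10 of its genes were described here: the survival genes Bcl2, Bcl2l1 and Mcl1, the effectors Bax and Bak1, and the BH3-only genes Bid, Bad, Bcl2l11, Bbc3 and Pmaip1. Their probes were found by gene symbol in the platform's probe table. Of the 10 genes, 9 had a probe, with 22 of the 24613 probes in the table, and 18 of the 22 lay above background on at least 1 array. No probe carried the symbol Bax, which was not analysed here.

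Total RNA of 4 mouse samples of the C57Bl/6 strain was hybridised to 4 Illumina bead arrays. T23 and T1525 are tumor cell lines from prostates of TRAMP mice at 30 weeks of age. In TRAMP mice the probasin promoter, which is active in prostate epithelium, drives SV40 T antigens, which bind the proteins encoded by Trp53 and Rb1. Normal prostate came from wild-type mice at 18 weeks and gave 2 arrays, here normal 1 and normal 2. Transgene, age, tumor and growth in culture go together with the group and cannot be told apart. Nothing in the labels says that the 2 normal arrays hold RNA of different mice. Their spread may be technical, and each line rests on a single array. For a single line against normal prostate, p-values measure the spread of the normal arrays alone. With both lines taken as 1 class, p-values measure that spread and the spread between the 2 lines.

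In healthy cells the survival proteins hold the effectors Bax and Bak1 in check. BH3-only proteins, which respond to stress, bind the survival proteins or switch on the effectors directly. Active effectors then open the outer mitochondrial membrane, and cytochrome c released from it joins Apaf1 to activate caspases. In the prostate, luminal cells die by apoptosis when androgen is withdrawn, and Bcl2 is known as a protein of the basal layer and of some tumors that grow without androgen.

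Values are the log2 of the deposited normalized intensity, and a probe counts as above background over 6.69, an intensity of 103. Brightness depends on the probe as well as on the RNA, so levels are compared between arrays and not between genes. Each gene is represented by its probe of highest mean above background, and a call means an adjusted p under 0.05 from limma, adjusted over 15767 probes. Each array had 50.8% to 51.0% of all probes above background, and precision is limited by having 4 arrays. Markers of other prostate cells were mostly at background in the lines. Of 10 leukocyte markers 1 lay above background in T23, 2 in T1525 and 9 on each normal array, with summed intensities of 743, 929, 19249 and 45284. Of 6 smooth muscle markers 3 lay above background in T23, 0 in T1525 and 6 on each normal array. Of 8 luminal markers 2 lay above background in T23, 4 in T1525 and 7 on each normal array. The luminal keratin Krt8 was 5.98 in T23, 14.12 in T1525 and 13.55 and 14.06 on the normal arrays. The basal keratin Krt14 was 5.96 in T23, 13.72 in T1525 and 11.86 and 13.08 on the normal arrays. The secreted luminal proteins Pbsn and Tgm4 were at background in both lines. These are bulk samples, in which fewer cells of a type and less RNA per cell cannot be told apart.

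With both lines set against both normal arrays, 0 of the 9 members passed the threshold (limma), against 11.4% of the 10903 named genes above background (5.3% higher and 6.09% lower). At an unadjusted p under 0.05 there were 2 members, Bcl2l11 and Bid, both higher in the lines. Without T23 the fit called 1 member and 3412 genes, without T1525 2 members and 3315 genes, and without either normal array 0 of both. The median difference of the 9 members, lines minus normal, was 0.22 on the log2 scale, against 0.11 over all named genes. As measured, Bcl2l11, Bid and Bbc3 were above both normal arrays in both lines, as were 36.3% of all named genes. For Bbc3 only T23 lay above background, so its order is not read. The shares of all named genes likewise count values under the threshold as measured. Mcl1 and Bad were below both normal arrays in both lines, as were 28.5% of all named genes. Together these are 5 of 9 members as measured, Bbc3 included, against 64.8% of all named genes, so the members' counts lie near the background.

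**Figure D1:**
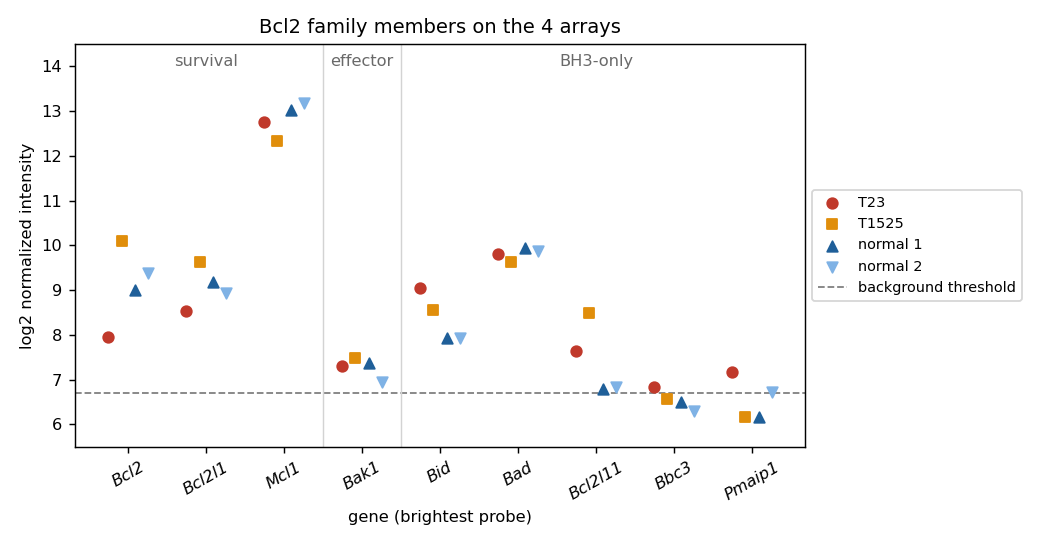
Log2 normalized intensity of the brightest probe of the 9 measured genes, 1 point per array, with the background threshold of 6.69 dashed. T23 and T1525 fall on opposite sides of both normal arrays for Bcl2 and Bcl2l1, and both lines lie above both normal arrays for Bid and Bcl2l11.

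Taken line by line, 2 members passed in T23: Bid was higher and Bcl2 lower. In T1525, Bcl2l11 was higher and no member was lower. Of all named genes 30.4% were called in T23 (15.5% higher, 14.9% lower) and 31.3% in T1525 (16.5% higher, 14.8% lower), so the members' counts are no larger than the background. Both comparisons use the same normal arrays, and both assume that a line varies like the normal pair.

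**Figure D2:**
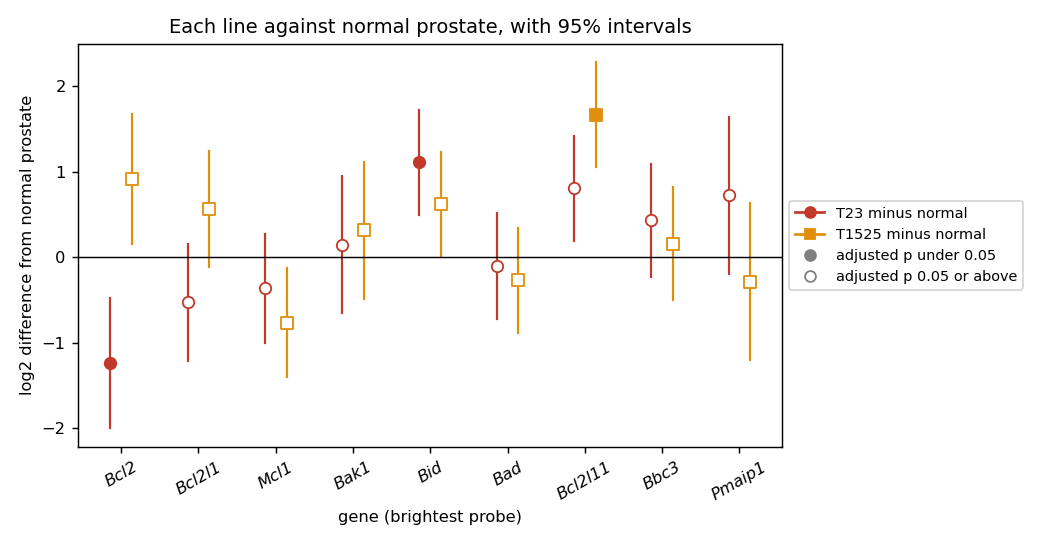
Log2 difference of T23 and of T1525 from the mean of the 2 normal arrays for each of the 9 genes, with 95% intervals from limma. Filled points mark an adjusted p under 0.05, which holds for Bcl2 and Bid in T23 and for Bcl2l11 in T1525.

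The sequence in front of the genes called in a line is given here as the 250 bases upstream of each annotated start (RefSeq, GRCm38.p6), 5′ to 3′ on the gene's strand. Capitals mark GGGCGG or its reverse complement CCGCCC, the GC box bound by Sp1. Bcl2l11 has 2 annotated starts with a window.
Bcl2, chr1:106714291-106714540, minus strand: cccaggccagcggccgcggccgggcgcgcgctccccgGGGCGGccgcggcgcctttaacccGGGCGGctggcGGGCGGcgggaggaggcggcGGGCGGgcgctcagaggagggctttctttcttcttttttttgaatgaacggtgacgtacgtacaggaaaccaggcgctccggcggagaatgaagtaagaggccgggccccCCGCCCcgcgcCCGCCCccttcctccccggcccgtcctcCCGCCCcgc
Bcl2l11, chr2:128125788-128126037, plus strand: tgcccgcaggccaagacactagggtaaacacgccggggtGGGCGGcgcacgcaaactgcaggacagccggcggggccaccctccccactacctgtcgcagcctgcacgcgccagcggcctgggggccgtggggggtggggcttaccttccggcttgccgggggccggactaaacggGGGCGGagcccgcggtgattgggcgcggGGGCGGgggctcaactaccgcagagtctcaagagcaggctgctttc
Bcl2l11, chr2:128127325-128127574, plus strand: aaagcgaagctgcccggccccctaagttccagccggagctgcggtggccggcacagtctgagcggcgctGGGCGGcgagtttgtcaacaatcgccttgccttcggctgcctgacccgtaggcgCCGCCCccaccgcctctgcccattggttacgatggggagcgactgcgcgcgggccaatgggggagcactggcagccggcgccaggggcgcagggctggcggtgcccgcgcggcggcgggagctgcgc
Bid, chr6:120916825-120917074, minus strand: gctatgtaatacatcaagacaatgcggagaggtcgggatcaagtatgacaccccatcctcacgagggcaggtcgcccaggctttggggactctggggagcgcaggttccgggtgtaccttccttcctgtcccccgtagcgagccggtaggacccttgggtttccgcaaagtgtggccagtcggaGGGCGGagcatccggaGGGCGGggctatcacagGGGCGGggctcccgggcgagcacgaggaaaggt
The Bcl2 window held 7 GC boxes, the Bcl2l11 windows 3 and 2, and the Bid window 3, on either strand and with no overlap. A GC box stood in 32.7% of the 32851 windows of this length. The E2F letters TTTNGCGC (1.13% of windows), the E-box CACGTG (6.02%) and the FOXO letters TTGTTTAC (1.07%) were searched on both strands and were in none of these 4 windows. The 4 windows shown were 63.6% to 74.8% G or C. Among the measured genes not called, the Bbc3 windows held 5, 1 and 7 GC boxes, Bad 3 and 0, and Mcl1 1. The windows of Bak1 and Bcl2l1 held 0. A match is a run of letters and not a measured site.

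Bcl2, which gave the family its name and blocks the effectors, separated the lines. It was 7.95 in T23 and 10.10 in T1525, against 8.998 and 9.38 on the normal arrays. T23 was thus the lowest array and T1525 the highest, with both normal arrays between them. T23 was 2.36-fold below normal (log2 difference -1.24, SE 0.27, limma adjusted p = 0.0427). T1525 was 1.89-fold above normal, which missed the threshold (log2 difference 0.92, SE 0.27, limma adjusted p = 0.0773). As a class the lines averaged 9.03 ± 1.52 and normal prostate 9.19 ± 0.27 (SD, n = 2 each), and the class difference of -0.16 had a 95% interval of -2.35 to 2.03. The mean of the class therefore describes neither line.

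Bcl2 had 8 probes, of which 6 lay above background, 3 for each of 2 RefSeq transcripts, here A and B. The order of the lines was the same on each of the 6: T1525 was above T23 by 0.48 to 2.15 and above both normal arrays. T1525 was called higher than normal on 4 of the 6 probes, but not on the brightest. Over the 3 probes of transcript A the difference of T23 from normal ran between -1.24 and -0.70, and T23 was called lower on 2 of them. Over the 3 probes of transcript B the difference of T23 ran between -0.41 and 0.52, and T23 was called on 0. On 2 of these the normal arrays lay at or close to background, which left no room for a lower T23, and T23 was above both normal arrays. Of the 6 probes, T23 was thus below both normal arrays on 4 and above both on 2. The brightest probe of B read 8.41 in T23 and 10.12 in T1525, against 8.71 and 8.94 on the normal arrays. T1525 exceeded T23 on the probes of both transcripts, and the difference between the 2 probe sets was not tested. Probes of 1 gene share the same RNA and are not replicates.

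**Figure D3:**
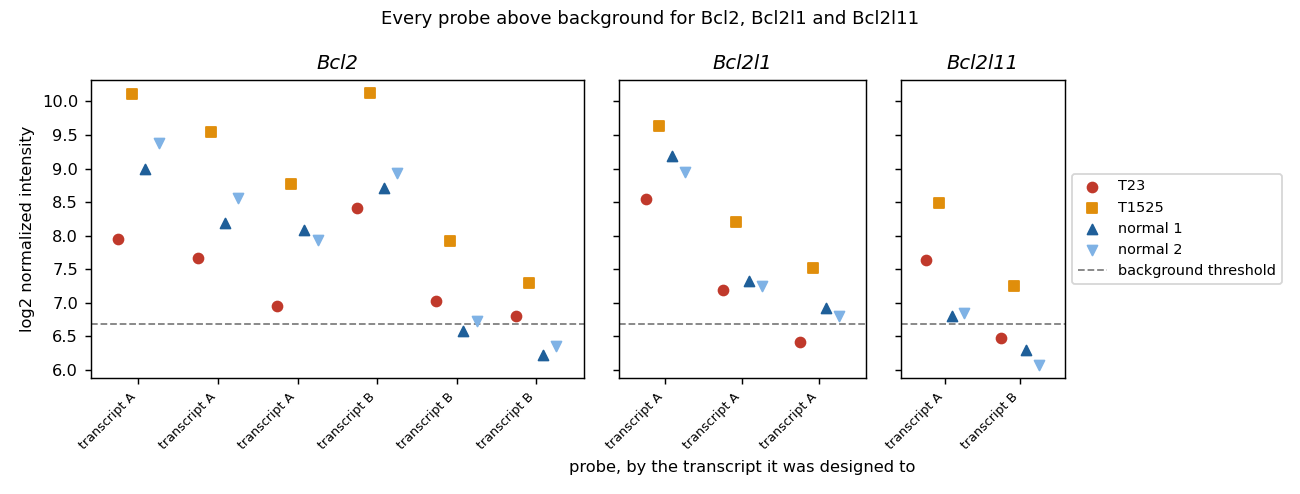
Log2 normalized intensity of each probe above background for Bcl2 (6 probes), Bcl2l1 (3) and Bcl2l11 (2), 1 point per array. A and B mark 2 RefSeq transcripts of the same gene, and T1525 is the highest array on all 11 probes.

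Bcl2l1, which encodes the survival protein Bcl-xL and a short form with the opposite effect, likewise had T23 as the lowest array and T1525 as the highest. It was 8.54 in T23 and 9.63 in T1525, against 9.19 and 8.95 on the normal arrays. T23 was below and T1525 above both. Neither line passed the threshold, with differences of -0.53 in T23 (95% interval -1.21 to 0.16, limma adjusted p = 0.178) and 0.57 in T1525 (95% interval -0.12 to 1.25, limma adjusted p = 0.156). On its 2 probes above background on every array T1525 was above T23 by 1.01 and 1.09, and on the remaining probe, with T23 at background, by at least 0.83. On each of the 3, T23 was below and T1525 above both normal arrays. T23 below and T1525 above both normal arrays was found for 8.75% of all named genes, and for Bcl2 and Bcl2l1 among the 9 members.

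Mcl1, a short-lived survival protein, was 12.75 in T23 and 12.34 in T1525, against 13.03 and 13.18 on the normal arrays. Both lines were below both normal arrays. The lines averaged 12.54 ± 0.29 and normal prostate 13.11 ± 0.10 (SD, n = 2 each), and the difference of -0.56 missed the threshold (95% interval -1.29 to 0.16, limma adjusted p = 0.234). In T1525 Mcl1 was 1.70-fold below normal (limma adjusted p = 0.0768), and it passed with a spread fitted as a trend on intensity (adjusted p = 0.0374). On its brightest probe, none of the 3 survival genes was above normal in both lines. On 2 weaker probes of Bcl2 both lines were above both normal arrays.

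Bak1, the measured effector, was 7.31 in T23 and 7.47 in T1525, against 7.37 and 6.95 on the normal arrays, so the groups overlap. The difference of 0.23 had a 95% interval of -0.51 to 0.97 (limma adjusted p = 0.581), and its sign turned with cyclic loess scaling (-0.12).

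Bcl2l11 encodes Bim, a BH3-only protein that binds all the survival proteins, and it had the highest difference of the 9 genes between the lines and normal prostate. It was 7.63 in T23 and 8.49 in T1525, against 6.80 and 6.84 on the normal arrays. The normal arrays lay just over background, and both lines lay clear of them. T1525 was 3.18-fold above normal (log2 difference 1.67, SE 0.22, limma adjusted p = 0.0158), a call kept in 7 of 7 alternatives with a test. T23 was 1.75-fold above normal and missed the threshold (log2 difference 0.81, SE 0.22, limma adjusted p = 0.064). As a class the lines averaged 8.06 ± 0.61 and normal prostate 6.82 ± 0.03 (SD, n = 2 each), 2.36-fold apart, which also missed it (limma adjusted p = 0.113). Its other probe read 6.48 in T23 and 7.25 in T1525, against 6.30 and 6.08 on the normal arrays, and was called higher in T1525 (limma adjusted p = 0.0437). Only T1525 was above background on that probe.

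Bid, the BH3-only protein that caspase 8 cuts to link death receptors to mitochondria, was 9.04 in T23 and 8.55 in T1525, against 7.92 and 7.93 on the normal arrays. Both lines were above both normal arrays, T23 the more so. T23 was 2.16-fold above normal (log2 difference 1.11, SE 0.22, limma adjusted p = 0.0339). T1525 was 1.54-fold above normal and missed the threshold (log2 difference 0.62, SE 0.22, limma adjusted p = 0.107). The call in T23 was lost with cyclic loess scaling (adjusted p = 0.0712) and with the intensity trend (adjusted p = 0.0519), and that of Bcl2 in T23 was lost with cyclic loess (adjusted p = 0.0528).

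Bad, a BH3-only protein kept inactive by survival kinases, was 9.80 in T23 and 9.64 in T1525, against 9.94 and 9.87 on the normal arrays. The difference of -0.19 had a 95% interval of -0.80 to 0.43 (limma adjusted p = 0.596). Bbc3 and Pmaip1 encode Puma and Noxa, both induced by p53. Bbc3 was 6.83 in T23 and 6.56 in T1525, against 6.50 and 6.30 on the normal arrays, and only T23 lay above background. Pmaip1 was 7.17 in T23 and 6.16 in T1525, against 6.16 and 6.73 on the normal arrays, with T23 and normal 2 above background. On both probes kept for Pmaip1 T1525 was at background, and T23 was over the threshold by 0.48 and 0.40. Neither gene was called in a line. Arrays at background have no order, so nothing is read from the differences between them.

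Between the lines, T23 was lower than T1525 for 4 of the 9 members, against 51.7% of all named genes. The members at least 1 log2 unit lower in T23 were Bcl2 and Bcl2l1, against 11.4% of all named genes, and Pmaip1 was at least 1 higher as measured, against 10.9%. T1525 was at background for Pmaip1, and with its value set to the threshold the gap was 0.48. The median gap between the lines over all named genes was 0.44, and that between the normal arrays 0.22. With 1 array per line these gaps have no test.

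Among other Bcl2 family genes, 18 were listed, 12 of them above background. Bcl2l2, the survival gene that encodes Bcl-w, was called lower in the lines and Bnip2, which binds Bcl2, higher, and the list's median difference was -0.45. In T23 the list had 2 genes called higher and 4 lower, and in T1525 2 higher and 1 lower. Over all named genes 11.4% passed with both lines, 30.4% in T23 and 31.3% in T1525. Bcl2l2 was 10.15 in T23 and 10.33 in T1525, against 11.91 and 11.62 on the normal arrays, 2.87-fold lower (limma adjusted p = 0.0404). Bnip2 was 11.07 in T23 and 11.34 in T1525, against 9.77 and 9.88 on the normal arrays, 2.60-fold higher (limma adjusted p = 0.0445). Its call was lost with median scaling (adjusted p = 0.0566), cyclic loess (adjusted p = 0.0564) and the intensity trend (adjusted p = 0.0552).

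T23 lay below and T1525 above both normal arrays for 2 of these 12 genes, Bik and Bok, against 8.75% of all named genes. Bik, a BH3-only gene, was 6.46 in T23 and 10.34 in T1525, against 9.51 and 9.27 on the normal arrays. T23 was at background and at least 6.47-fold below normal (limma adjusted p = 0.00813, for the fitted difference), while T1525 was 0.96 above normal on the log2 scale and missed the threshold (limma adjusted p = 0.0547). Bok, an effector related to Bax and Bak1, was 9.71 in T23 and 11.77 in T1525, against 11.22 and 11.74 on the normal arrays. T23 was 3.41-fold below normal (limma adjusted p = 0.0279), and T1525 was close to normal 2 (log2 difference 0.29, limma adjusted p = 0.514). Bmf, a BH3-only gene, was 6.33 in T23 and 6.88 in T1525, against 6.94 and 6.57 on the normal arrays, and the groups overlap (limma adjusted p = 0.761). Bnip3 was not above background on any array.

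Bcl2a1b, a survival gene of blood cells singled out after its values were seen, was at background in the lines, at 6.21 in T23 and 6.41 in T1525, against 8.18 and 10.19 on the normal arrays. It was at least 5.62-fold lower, and the fitted difference missed the threshold (limma adjusted p = 0.0881). Bcl2a1a and Bcl2a1b are near-identical copies, so their probes are uncertain as to gene. The leukocyte markers moved the same way, Cd74 being 6.16 in T23 and 6.13 in T1525, against 11.78 and 13.90 on the normal arrays, and their part in this result was not tested.

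Downstream of the mitochondria, 10 of 14 listed apoptosome and caspase genes lay above background, 1 was called higher and 0 lower (limma; 11.4% of all named genes passed in either direction), and the list's median difference was 0.71. Apaf1, the scaffold that cytochrome c switches on, was 8.49 in T23 and 8.91 in T1525, against 6.49 and 6.91 on the normal arrays. It was 4.01-fold higher (log2 difference 2.00, limma adjusted p = 0.0358), and this call was lost with cyclic loess (adjusted p = 0.0591). Normal 1 was at background for Apaf1, and with its value set to the threshold the log2 difference was 1.90. Casp9, the caspase that Apaf1 recruits, was 9.01 in T23 and 9.57 in T1525, against 9.91 and 9.69 on the normal arrays (limma adjusted p = 0.322). Diablo, released with cytochrome c to block inhibitors of apoptosis, was 11.47 in T23 and 11.16 in T1525, against 10.96 and 10.71 on the normal arrays (limma adjusted p = 0.282). Casp8, which cuts Bid and was singled out after its values were seen, was 10.81 in T23 and 11.25 in T1525, against 9.60 and 10.01 on the normal arrays, and was called higher in T1525 (limma adjusted p = 0.0326), a call lost with median scaling (adjusted p = 0.0568) and cyclic loess (adjusted p = 0.0681). Cycs had no probe of that symbol and was not analysed here.

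Of 10 listed inhibitor of apoptosis genes, 6 lay above background, Birc5 was called higher in the lines and 0 lower, and the list's median difference was 0.12. For all named genes the shares were 5.3% higher and 6.09% lower, and the median difference was 0.11. Birc5, which encodes survivin and also acts in mitosis, was 12.73 in T23 and 12.67 in T1525, against 7.95 and 7.69 on the normal arrays (limma adjusted p = 0.00898). It moved with the cell division markers, whose summed intensity was 27256 in T23 and 31110 in T1525, against 1479 and 1227 on the normal arrays, and that list holds Birc5 itself. Xiap, which blocks caspases directly, was 6.95 in T23 and 6.58 in T1525, against 6.46 and 6.39 on the normal arrays, with only T23 above background (limma adjusted p = 0.419).

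Of 12 listed death receptor pathway genes, 8 lay above background, 0 were called higher and Tnfrsf21 lower, and the list's median difference was -0.24. Of all named genes 5.3% were called higher and 6.09% lower, with a median difference of 0.11. Tnfrsf21, death receptor 6, was at background in the lines at 6.50 in T23 and 6.25 in T1525, against 9.36 and 8.90 on the normal arrays, at least 5.43-fold lower (limma adjusted p = 0.0205, for the fitted difference). Fas, the receptor of Fas ligand, was 8.52 in T23 and 6.67 in T1525, against 8.86 and 8.76 on the normal arrays. T1525 was at background and at least 4.35-fold below normal (limma adjusted p = 0.011), whereas T23 was not called (limma adjusted p = 0.368). Tnfrsf1a, a receptor of tumor necrosis factor singled out after its values were seen, was 11.71 in T23 and 6.08 in T1525, against 11.68 and 12.28 on the normal arrays. T1525 was at background and at least 39.0-fold below normal (limma adjusted p = 0.00517), and T23 lay within the normal arrays. Cflar was not above background on any array.

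**Figure D4:**
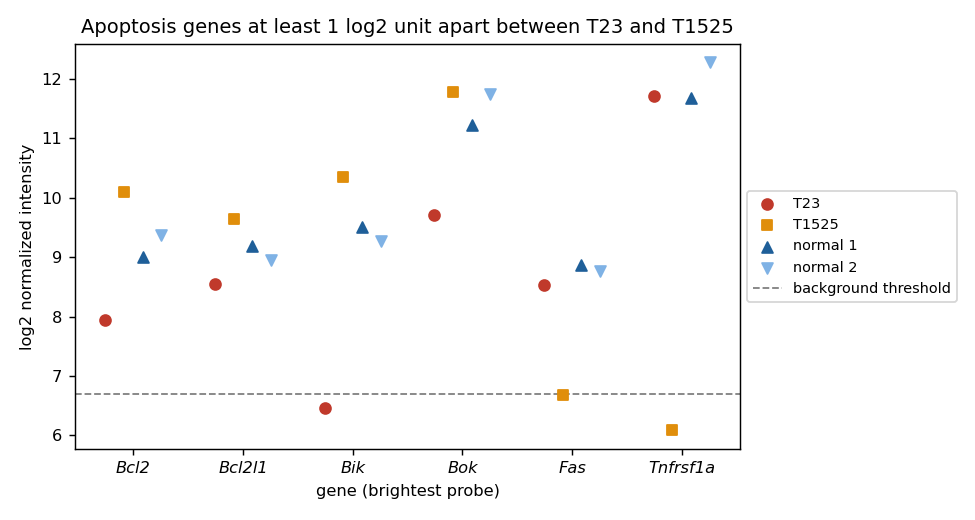
Log2 normalized intensity of Bcl2, Bcl2l1, Bik, Bok, Fas and Tnfrsf1a, 1 point per array, chosen as examples after their values were seen. T23 is the lowest array for the first 4 genes, and T1525 is the lowest for Fas and Tnfrsf1a, at background in both.

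Of 20 listed genes that regulate the members, 17 lay above background, 2 were called higher and 2 lower (5.3% and 6.09% of all named genes), and the list's median difference was 0.37. E2f1, a transcription factor released when Rb1 is inactivated, was 10.95 in T23 and 11.56 in T1525, against 8.10 and 7.85 on the normal arrays, 9.74-fold higher (limma adjusted p = 0.0192). Vdac3, a channel of the outer mitochondrial membrane, was 9.93 in T23 and 9.64 in T1525, against 7.82 and 7.81 on the normal arrays, 3.92-fold higher (limma adjusted p = 0.0262). Vdac2, which binds Bak1, was 11.73 in T23 and 12.09 in T1525, against 11.19 and 11.18 on the normal arrays, and missed the threshold (limma adjusted p = 0.143). Bag3, a cochaperone that binds Bcl2, was 11.78 in T23 and 11.66 in T1525, against 12.97 and 13.14 on the normal arrays, 2.52-fold lower (limma adjusted p = 0.0436). Tmbim6, which encodes Bax inhibitor 1, was 13.85 in T23 and 13.19 in T1525, against 15.43 and 15.18 on the normal arrays, 3.44-fold lower (limma adjusted p = 0.0495), and this call was lost without the filter (adjusted p = 0.0510), with the stricter background tail (adjusted p = 0.0507) and with the mean of probes (adjusted p = 0.05001). Mdm2, which targets p53 for destruction, was 11.92 in both lines, against 11.59 and 11.56 on the normal arrays (limma adjusted p = 0.339). Trp53 had no probe of that symbol and was not analysed here.

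**Figure D5:**
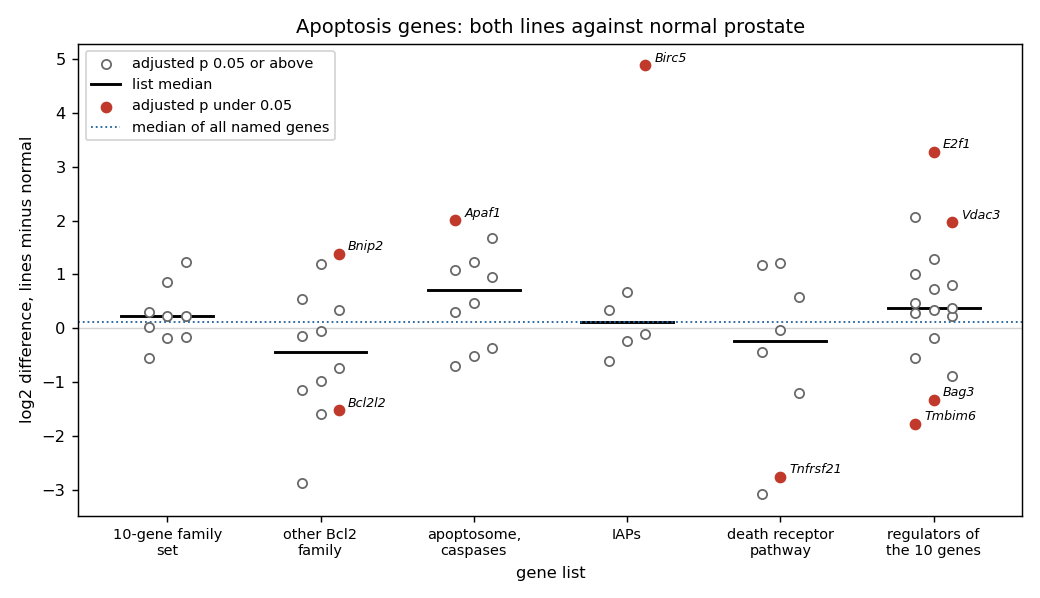
Log2 difference, lines minus normal, of each gene above background in the 10-gene family set and in 5 lists of related genes, with each list's median as a bar and the median of all named genes, 0.11, dotted. Filled points mark an adjusted p under 0.05 from limma, and none lies in the 10-gene set.

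The members with the widest range over the 4 arrays were Bcl2 and Bcl2l11. By Euclidean distance between profiles centred on their own mean, the genes most like Bcl2 were Abca7 (0.164), Mif4gd (0.222) and H2bc11 (0.255), and those most like Bcl2l11 were Rnf145 (0.0653), Son (0.0792) and Mex3d (0.0838). Over 4 arrays such likeness is a description only.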

How the data were processed

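The deposited normalized intensities of 24613 probes on 4 arrays were used, and their log2 was taken. The submitters' processing notes name BeadStudio, with no version or method. The 4 columns of deposited intensities hold nearly the same sorted values, as after quantile normalization. Signals before normalization have 8 columns named by slide position only, which were not used, so slides could not be tested as a batch.

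The background threshold is the mode of all log2 values (6.12) plus the distance that leaves 0.01 of a normal curve above it, given the SD of the lower side (0.247). Probes over the threshold on 1 array or more entered two-sided limma fits (version 3.58.1, R 4.3.3), adjusted by Benjamini-Hochberg. The class fit had 2 residual and 2.07 prior degrees of freedom, the fit of 3 groups 1 and 2.95. "At least" folds set values under the threshold to it. The class fit was tested on simulated data, with the same change in both lines and the same spread on all 4 arrays. The fit of 3 groups, which gives the calls in single lines, was not tested in this way. Alternatives were 2 scalings, 4 filters, an intensity trend, the mean of a gene's probes and leaving out each array.

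Members, gene lists and thresholds were chosen with earlier results of these data known. Named genes were all members, list genes called in the class comparison, a fixed set of 17 pathway genes, and the 3 nearest genes of 2 members; others are marked where named, and 1 of the fixed set is not reported here. Figures used matplotlib 3.10.9 in Python 3.11.15.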

Additional observations from a re-analysis of the deposited data

Results flagged for a closer look

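Among the 62 genes above background in the 10-gene set and the 5 related lists, 6 had the lines on opposite sides of both normal arrays, with values under the background threshold set to it. T23 was the lower line for 5 of them, 8.06% of the 62, against 7.03% of all named genes. T23 was the higher line for 1, or 1.61%, against 6.7% of all named genes, so these counts do not stand above those of all genes. T23 minus T1525 on the log2 scale was -2.15 for Bcl2, -1.09 for Bcl2l1, -2.06 for Bok, -3.65 for Bik and -0.81 for Birc2, an inhibitor of apoptosis. It was 1.42 for Ddit3, a transcription factor of the stress response. Birc2 and Ddit3 were named after their values were seen. For Bik the gap is a lower bound in size, since T23 was at background. For Bok, T1525 was 11.77 and normal 2 was 11.74, so T1525 lay only just above the normal arrays. The difference between the lines was not tested, since each has 1 array. Marker lists also differed between the lines: luminal markers summed to an intensity of 1066 in T23 and 26785 in T1525 (2 and 4 of 8 above background), basal markers to 484 and 13914 (1 and 2 of 4), and smooth muscle markers to 27772 and 411 (3 and 0 of 6). Their part in these differences was not tested.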

How the results depend on the processing

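The class comparison called 1242 genes, 578 higher and 664 lower. The split was 418 to 741 with median scaling and 364 to 773 with cyclic loess, and the median difference over all genes moved to -0.06 and -0.10, against 0.11. With cyclic loess, genes called higher numbered 1116 in T23 (1692 as reported) and 1143 in T1525 (1800 as reported). Leaving out an array in turn gave 0 to 3412 genes in all, 0 to 1800 higher and 0 to 1623 lower, with 0 to 2 members past the threshold; without either normal array 0 genes were called by limma, with 1804 and 1708 at an unadjusted p under 0.05. Without T23 (3412 genes, 1 member) or without T1525 (3315 genes, 2 members) the class fit equals the fit of the remaining line, so these counts are no separate check, and without a normal array the fit of single lines has no residual degrees of freedom and no test. Members past the threshold in T23 numbered 0 with cyclic loess and 1 with the intensity trend, against 2, and in T1525 2 with the intensity trend, against 1. Signs turned in the class comparison for Bcl2 with the mean of probes (0.32) and when arrays were left out (-1.24 to 0.92), for Bcl2l1 with median scaling (-0.15), cyclic loess (-0.25) and arrays left out (-0.53 to 0.57), and for Bak1 with cyclic loess (-0.12). With arrays left out, signs also turned for Pmaip1 (-0.28 to 0.73), Bok (-1.77 to 0.29), Bik (-2.93 to 0.96), Bmf (-0.43 to 0.13), Ddit3 (-0.43 to 0.99) and Birc2 (-0.64 to 0.17). In single lines they turned for Bak1 in T23 (-0.0196 with median scaling, -0.19 with cyclic loess) and in T1525 (-0.0474 with cyclic loess), and in T1525 for Bbc3 (-0.0147) and Xiap (-0.0293) with median scaling, Bmf (-0.0493 with median scaling, -0.0321 with cyclic loess) and Birc2 (-0.00858 with median scaling, -0.17 with cyclic loess). None of these values that turned sign passed the threshold. In single lines without 1 normal array, signs also turned in T23 for Bak1 (-0.065 to 0.36) and Tnfrsf1a (-0.57 to 0.027). In T1525 they turned for Bmf (-0.058 to 0.31), and these values have no test. The cause was not tested. Over 1071 checks of single genes, 978 were counted as unchanged, 37 lost and 31 gained a call, and 25 turned sign. The 978 include the checks of a single line without 1 normal array, which had no test and so no side of the threshold. There a value counted as unchanged if it shifted by less than the SD of the normal pair. Leaving out a normal array always gives a smaller shift, so only a turned sign of a called gene could count as a change. These checks are therefore no measure of stability. For a gene not called, the rule used there could not count a turned sign, so the turns of Bak1, Tnfrsf1a and Bmf are among the 978. The labels pair no line with a normal array, so no paired analysis was possible.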
